A study of Caenorhabditis elegans with 24 samples.

Results

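The response of *pqm-1(ok485)* mutant worms to CoCl2 was set against that of wild-type worms, gene by gene, after 20 h of exposure. Members are the 6 arrays on which CoCl2-treated worms were hybridized against untreated worms of the same strain at 20 h, of 24 arrays in the whole series. Of the 6 arrays, 3 compared *pqm-1(ok485)* with 5 mM CoCl2 against untreated *pqm-1(ok485)*, and 3 compared N2, the wild-type strain, with 5 mM CoCl2 against untreated N2. The *ok485* allele is labeled as a loss of function of *pqm-1* throughout the animal, and N2 carries no mutation. Each array is 1 of 3 biological replicates of synchronized early day 1 adults, so that RNA of whole animals with all their tissues and their germline was measured. In such bulk RNA a gain of cells of a type and a gain of RNA per cell cannot be told apart. The study reports slower development of *pqm-1* mutants than of the wild type, and its array worms were synchronized with hypochlorite. Whether the strains were at the same stage was not tested, and a difference of stage cannot be told apart from a difference of response. The value of a gene on an array was the log2 ratio of CoCl2 over untreated RNA. The response of a strain was the mean of its 3 ratios, and the strain difference was the response of *pqm-1* minus the response of N2. A positive difference thus means that CoCl2 shifted the gene further up, or less far down, in *pqm-1* than in N2. A gene is called different where limma, fitted over all 23057 genes tested, gave a Benjamini-Hochberg adjusted p under 0.01.

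PQM-1 is a zinc finger transcription factor of *C. elegans* that acts downstream of insulin-like signaling and is antagonized by the FOXO factor DAF-16, which favors stress resistance genes while PQM-1 favors growth and reproduction genes. CoCl2 is a chemical mimic of hypoxia: cobalt stabilizes the hypoxia-inducible factor HIF-1, and as a heavy metal it also calls up metal defense and protein folding genes. A difference of responses between a mutant and its wild type, the interaction of strain and treatment, leaves out any difference between the strains that is already there without treatment.

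The 1 probe for *pqm-1* was read first. In untreated worms its log2 ratio of *pqm-1(ok485)* over N2 was -1.57, -1.36 and -1.43 on 3 arrays (mean -1.45, adjusted p = 0.000237). With CoCl2 the same ratio was 0.26, 0.12 and 0.18 (mean 0.19, adjusted p = 0.359). The transcript was thus lower in the mutant without CoCl2 and not detectably different with it, and the files do not say whether the *ok485* mutation reaches the probed stretch. The CoCl2 response of this probe was 2.97, 3.77 and 2.72 on the *pqm-1* arrays, against 1.89, 2.36 and 1.71 on the N2 arrays. It rose in both strains and more in *pqm-1*, by a difference of 1.17 (SE 0.23, adjusted p = 0.0048). This call ended without N2 replicate 1 (1.12, adjusted p = 0.0242), without N2 replicate 3 (1.03, adjusted p = 0.0215) and without *pqm-1* replicate 1 (1.26, adjusted p = 0.0128). Centering each array on its median in place of loess, the normalization within an array used here (1.48, adjusted p = 0.0415), the 6 arrays fitted alone (adjusted p = 0.0441) and the slide as a fixed block (1.02, adjusted p = 0.0627) also ended it, and with scaling between arrays the value was 0.42 (adjusted p = 0.308).

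On 5 of the 6 arrays, 86.1% to 88.9% of the probes stood above background in a channel, and on N2 replicate 3 68.5% did, with 0 saturated probes. Replicate 2 of N2 stood apart from the other N2 arrays. Across genes, which are no independent replicates, its ratios correlated with those of the 3 *pqm-1* arrays at r of 0.749, 0.810 and 0.788, and with N2 replicates 1 and 3 at 0.806 and 0.749, while the other N2 arrays reached 0.578 to 0.671 with the *pqm-1* arrays and 0.831 with each other. The *pqm-1* arrays correlated with each other at 0.908 to 0.939. N2 replicate 2 shared its slide with *pqm-1* replicates 1 and 2, and the other arrays of N2 lay on slides without a *pqm-1* array of this comparison. The source names of N2 replicate 2 and of *pqm-1* replicate 1 give the opposite dyes to the strain and treatment fields, which were followed. With the fields these arrays correlated with the other arrays of their strain at r of 0.749 to 0.939. With the source names the same correlations would be negative. Whether the RNA on N2 replicate 2 was mislabeled or mixed with other RNA, which would bear on every N2 mean, was not tested, and counts are given with and without it. Marker genes of the tissues were present: all 9 intestine markers and all 12 body muscle markers, 10 of 11 pharynx markers, 13 of 14 neuron markers and 9 of 10 hypodermis markers stood well above background in the 4 RNAs on every array. Of 9 male sensory genes 0 did.

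The strain difference ran mainly one way. Of 23057 genes, 1875 had a positive difference, 8.13% of those tested, and 170 had a negative one, 0.737%. Of the 23057, 18195 matched a RefSeq gene, and the rest were counted under their name on the array. The shares of all genes given below include such unmatched names. Among matched genes the positive share ran from 6.29% on chromosome X to 12.6% on chromosome IV. At least 2-fold in size was the difference at 991 positive and 51 negative genes. Over all genes the median difference was 0.018, and 54.0% of the genes lay above 0. Differences ran from -3.18, for a gene with dim signals in *pqm-1* (*ins-19*), to 3.32, and the median SE was 0.12. Every called gene had its 3 *pqm-1* ratios apart from its 3 N2 ratios, as had 19.3% of all genes in the positive and 7.6% in the negative direction. Without N2 replicate 2, 2172 genes (9.42%) were positive and 162 (0.703%) negative, among them 1671 of the 1875 and 110 of the 170.

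Most of the positive genes responded in the mutant and not detectably in N2. Of all genes tested, 22.8% rose and 12.4% fell with CoCl2 in *pqm-1*, and 8.98% rose and 6.93% fell in N2. The median response of the positive genes was 1.17 in *pqm-1* and 0.14 in N2. Of the 1875, 1302 rose with CoCl2 in *pqm-1* alone (69.4%, but 55.7% with the ratio of the scanner's software, 52.06% with the slide as a fixed block and 49.65% with a background correction that does not damp dim spots), 265 rose in both strains and more in *pqm-1*, and 154 fell in N2 alone. A further 68 rose in *pqm-1* and fell in N2, 68 fell in both strains and less in *pqm-1*, and 18 passed in neither strain. The 170 negative genes had a median response of -0.51 in *pqm-1* and 0.24 in N2. Among them 89 fell in *pqm-1* alone, 42 rose in N2 alone, 15 fell in both strains, 10 rose in both, 8 fell in *pqm-1* and rose in N2, and 6 passed in neither strain. The plot of the 2 responses shows these groups as the regions above and below the diagonal.

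**Figure D1:**
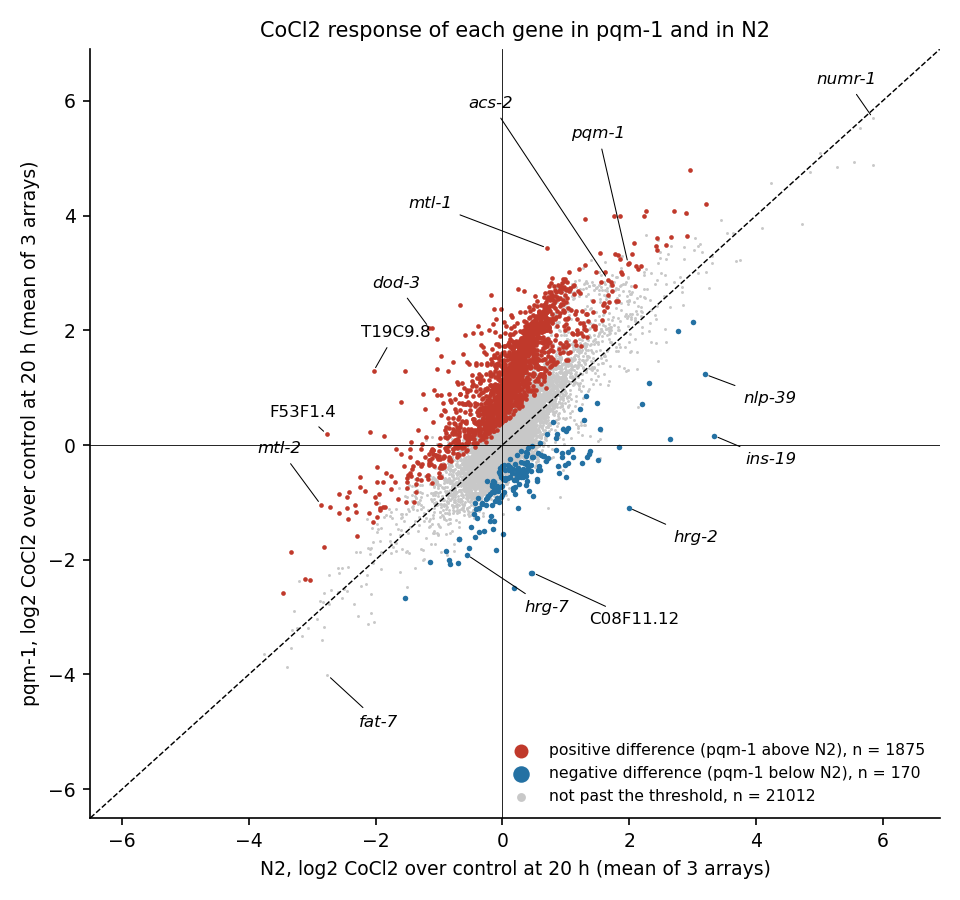
Each point is a gene, with its mean log2 ratio of CoCl2 over control on 3 N2 arrays (x axis) and on 3 *pqm-1* arrays (y axis) at 20 h, and the dashed line marks equal responses. The 1875 positive genes (red) lie above the line, mostly near 0 on the N2 axis, and the 170 negative genes (blue) lie below it, while *numr-1* lies on the line far up.

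The count rested on the processing, on single arrays and on the arrays that shared the estimate of the spread. Fitted alone, without the other arrays of 20 h, the 6 arrays gave 539 positive and 35 negative genes. When each array was only centered on its median in place of loess, 105 positive and 10 negative genes remained called, all of them among the 1875 and the 170. Leaving out N2 replicate 1 left 773 positive and 61 negative genes, leaving out *pqm-1* replicate 1 824 and 59, leaving out N2 replicate 3 1009 and 143, and leaving out *pqm-1* replicate 2 1034 and 182. The list counts without an array given below are to be set beside these totals, not beside the share of all genes in the full fit. With the slide as a fixed block, which keeps only the difference within the slide of N2 replicate 2 and *pqm-1* replicates 1 and 2, 194 positive and 35 negative genes passed. Of the 81 called genes named here 33 stayed called after median centering and 36 within that slide, and all 81 kept their direction under both.

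The genes with the largest positive differences were turned down by CoCl2 in N2 and turned up in *pqm-1*. The gene T19C9.8 on chromosome V, for which no role is given here, had log2 ratios of 1.25, 1.64 and 0.97 on the *pqm-1* arrays, against -2.36, -1.71 and -2.02 on the N2 arrays. Its difference of 3.32 (SE 0.27, adjusted p = 2.77e-05) was the largest here, although *dod-3* exceeded it with the scanner's ratio (5.22 for *dod-3* and 5.06 for T19C9.8) and within the shared slide (3.27 and 3.16). The gene fell in N2 and rose in *pqm-1*, and without CoCl2 it was lower in *pqm-1* than in N2, with a log2 ratio of -1.69 (adjusted p = 0.000235). For *dod-3*, named as a gene downstream of DAF-16, the ratios were 2.11, 2.01 and 2.01 on the *pqm-1* arrays, against -1.66, -1.21 and -0.59 on the N2 arrays. The difference was 3.20 (SE 0.25, adjusted p = 2.77e-05), with all 3 *pqm-1* arrays close together. A pair of neighbors by sequence name on chromosome I, R12E2.14 and R12E2.15, gave nearly the same values. R12E2.14 had 1.97, 1.80 and 2.36 on the *pqm-1* arrays, against -1.03, -0.80 and -1.49 on the N2 arrays, a difference of 3.15 (SE 0.25, adjusted p = 2.77e-05), and R12E2.15 differed by 2.88 (adjusted p = 2.77e-05). Whether the probes of the pair bind both transcripts is not known from the files, so they count as 1 observation at most. Both rose in *pqm-1* and fell in N2.

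Other large differences came from 1 strain alone or from unequal rises in both. F41F3.3 had 2.25, 2.43 and 2.64 on the *pqm-1* arrays, against -0.67, -0.49 and -0.84 on the N2 arrays and rose in *pqm-1* alone, with a difference of 3.11 (SE 0.25, adjusted p = 2.77e-05). F53F1.4 had 0.28, -0.26 and 0.56 on the *pqm-1* arrays, against -2.71, -2.59 and -3.02 on the N2 arrays, and here the fall in N2 made up the difference of 2.96 (SE 0.27, adjusted p = 5.61e-05), since the *pqm-1* ratios lay on both sides of 0. For F33H12.7 the ratios were 3.91, 3.84 and 4.05 on the *pqm-1* arrays, against 0.91, 2.33 and 0.65 on the N2 arrays. It rose in both strains, with a difference of 2.64 (SE 0.40, adjusted p = 0.00122), and N2 replicate 2 lay nearer to the *pqm-1* arrays than the other N2 arrays did (difference 3.16 without it). For *far-3*, which encodes a fatty acid and retinol binding protein, the ratios were 1.82, 1.94 and 2.01 on the *pqm-1* arrays, against -1.03, 0.29 and -1.02 on the N2 arrays, again with N2 replicate 2 highest, and the difference was 2.51 (SE 0.36, adjusted p = 0.000821). Of these 4 genes F41F3.3 and F53F1.4 kept their call under median centering in place of loess, as did T19C9.8, *dod-3*, R12E2.14 and R12E2.15.

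**Figure D2:**
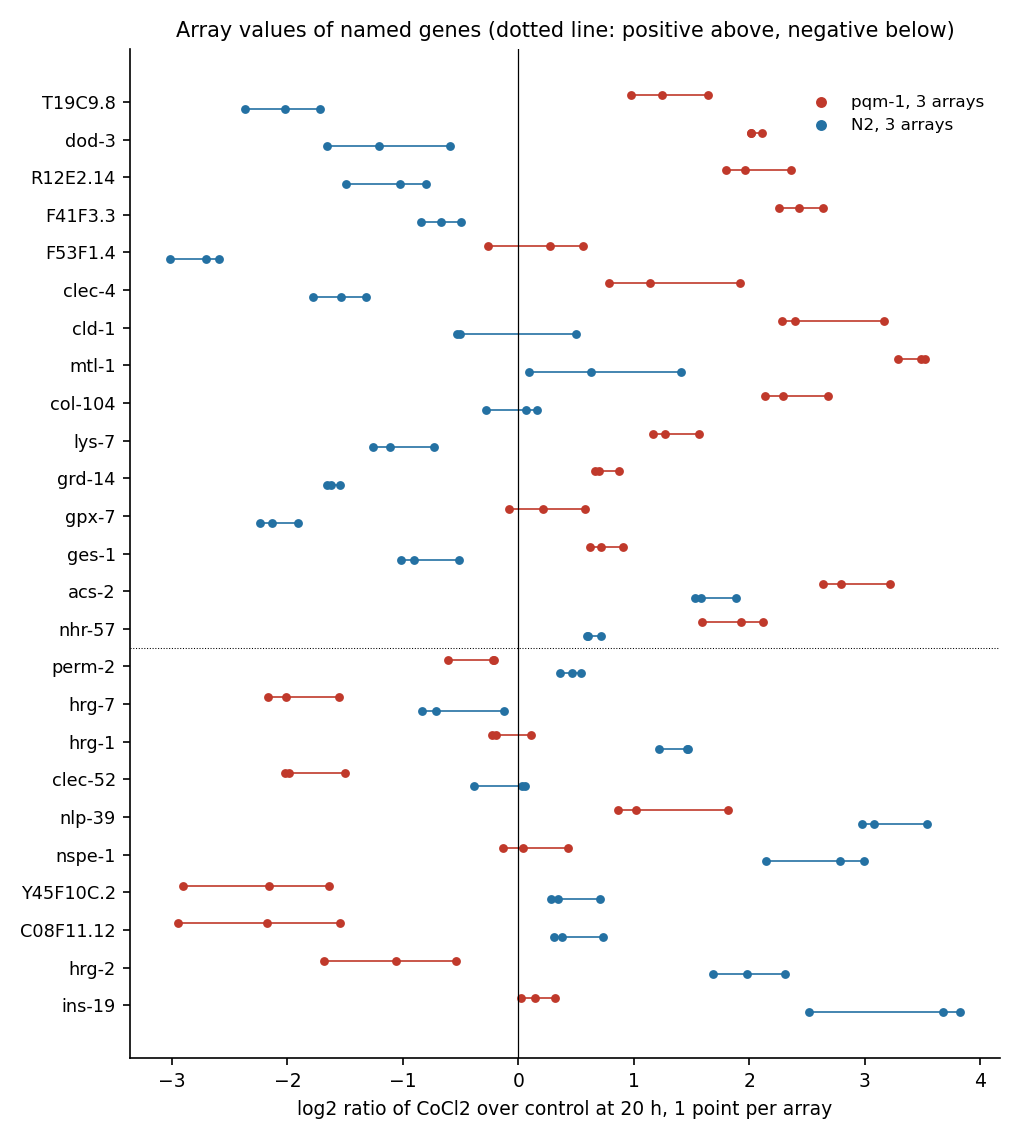
Log2 ratios of CoCl2 over control at 20 h (x axis) on each of 3 *pqm-1* arrays (red) and 3 N2 arrays (blue) for 25 named genes, 15 with a positive difference above the dotted line and 10 with a negative one below it. The *pqm-1* points lie right of the N2 points for every gene above the dotted line and left of them for every gene below it.

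Genes of innate defense stood among those with the strongest differences, though the medians of their families lay near 0. C-type lectins are sugar-binding proteins, many of which answer to bacteria. Of 213 tested, 29 had a positive and 5 a negative difference (13.6% and 2.35%, beside 8.13% and 0.737% of all genes). The median of the lectins was 0.044, beside 0.018 over all genes. The positive lectins numbered 16 without N2 replicate 1 and 19 without *pqm-1* replicate 1, and the negative ones 1 without N2 replicate 1, 1 without *pqm-1* replicate 1 and 2 without N2 replicate 3. Over all genes the positive calls fell from 1875 to 773 without N2 replicate 1 and to 824 without *pqm-1* replicate 1. The ratios of *clec-4* were 1.14, 1.92 and 0.78 on the *pqm-1* arrays, against -1.78, -1.54 and -1.32 on the N2 arrays. It fell in N2 and rose in *pqm-1*, a difference of 2.83 (SE 0.25, adjusted p = 4.91e-05). *clec-265* rose in both strains, with ratios of 3.56, 3.06 and 3.44 on the *pqm-1* arrays, against 1.66, 1.69 and 1.27 on the N2 arrays and a difference of 1.81 (SE 0.15, adjusted p = 2.77e-05). *clec-66* also rose in both, by 1.87 ± 0.19 in *pqm-1* and 0.29 ± 0.040 in N2 (SD, n = 3 each), and differed by 1.58 (adjusted p = 6.44e-06). *clec-52* went the other way: it had -2.02, -1.99 and -1.50 on the *pqm-1* arrays, against 0.057, -0.39 and 0.030 on the N2 arrays. It fell in *pqm-1* alone, by a difference of -1.74 (SE 0.20, adjusted p = 0.00021), and in untreated worms it was higher in *pqm-1* than in N2 by 1.67 (adjusted p = 2.30e-05).

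Lysozymes, saposin-like proteins and other antimicrobial peptides had 8 positive and 1 negative genes of 65 (12.3% and 1.54%, beside 8.13% and 0.737% of all genes), with a median difference of 0.14. *lys-7*, a lysozyme of the intestine, had 1.56, 1.16 and 1.27 on the *pqm-1* arrays, against -1.11, -0.73 and -1.26 on the N2 arrays. It rose in *pqm-1* and fell in N2, and the difference was 2.37 (SE 0.17, adjusted p = 2.77e-05). The saposin-like gene *spp-2* rose in *pqm-1* alone, with 2.71, 2.42 and 2.94 on the *pqm-1* arrays, against 0.47, 0.73 and -0.18 on the N2 arrays and a difference of 2.34 (SE 0.22, adjusted p = 6.60e-05). Its relative *spp-17* was the negative gene: it fell in both strains, to -2.67 ± 0.29 in *pqm-1* and -1.54 ± 0.15 in N2 (SD, n = 3 each), and further in *pqm-1* by -1.13 (SE 0.14, adjusted p = 0.000435). Another antimicrobial peptide gene, *cnc-2*, had 1 N2 array far from all others. Its ratios were -1.16, -1.33 and -0.82 on the *pqm-1* arrays, against -0.78, 4.11 and -1.17 on the N2 arrays, and with a single N2 array so high its difference of -1.82 was not called (adjusted p = 0.383) and was -0.13 without that array. The positive count of the list was 5 without each of N2 replicates 1 and 3 and *pqm-1* replicates 1 and 2, and the negative count was 3 without N2 replicate 2 and 2 without *pqm-1* replicate 3.

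CUB-like and *dod* genes, secreted or DAF-16-linked proteins that include clusters on cosmids C32H11 and F55G11, had 9 positive genes of 26 and 0 negative, with a median of 0.35 (10 positive without N2 replicate 2). Beside *dod-3*, *cld-1* had 2.40, 3.17 and 2.28 on the *pqm-1* arrays, against -0.51, 0.50 and -0.53 on the N2 arrays. It rose in *pqm-1* alone and differed by 2.80 (SE 0.29, adjusted p = 0.00012), on a background of 1.34 between the untreated strains (adjusted p = 0.00176). *mbug-1* rose in *pqm-1* and fell in N2, with 0.65, 1.04 and 0.50 on the *pqm-1* arrays, against -0.95, -0.88 and -0.99 on the N2 arrays and a difference of 1.67 (SE 0.12, adjusted p = 2.17e-05). Among 41 infection response genes 6 were positive and 1 negative (14.6% and 2.44%, beside 8.13% and 0.737% of all genes). The *pals* genes, a family tied to the response to intracellular pathogens, were found on both sides. *pals-23* had 1.53 ± 0.22 in *pqm-1* and -0.11 ± 0.12 in N2 (SD, n = 3 each) and a difference of 1.64 (SE 0.11, adjusted p = 1.93e-05), and *pals-6* differed by 1.45 (adjusted p = 0.000414), both rising in *pqm-1* alone. *pals-17* rose in both strains and less in *pqm-1*, with 2.21, 2.22 and 1.99 on the *pqm-1* arrays, against 3.03, 3.17 and 2.80 on the N2 arrays and a difference of -0.86 (SE 0.13, adjusted p = 0.00116).

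Among metal response and heat shock genes the CoCl2 response differed detectably between the strains for some and not for others. *numr-1*, a nuclear protein gene induced by metals, rose by 5.70 ± 0.26 in *pqm-1* and 5.85 ± 0.55 in N2 (SD, n = 3 each). Its difference of -0.15 lay within the spread of the arrays (adjusted p = 0.776). The heat shock genes *hsp-70* and *hsp-16.48*, chaperones of the stress response, rose in both strains and differed by 0.22 (adjusted p = 0.731) and -0.97 (adjusted p = 0.13). None of the 6 *hsp-16* and *hsp-70* genes passed in either direction, with a median difference of -0.37 in which SEs were large (0.31 for *hsp-70* and 0.40 for *hsp-16.48*). Without CoCl2, 4 of these 6 were higher in *pqm-1* than in N2, beside 3.1% of all genes, with a median log2 ratio of 1.13. Of 10 metal response genes, 3 had a positive difference and 0 a negative one, beside 8.13% and 0.737% of all genes. The 3 were the pair of metallothioneins, small metal-binding proteins, and *cdr-2*, of the cadmium-responsive family. *mtl-1* had 3.52, 3.29 and 3.49 on the *pqm-1* arrays, against 0.63, 1.41 and 0.088 on the N2 arrays. Its rise passed in *pqm-1* alone, although every N2 ratio lay above 0, and the difference was 2.72 (SE 0.26, adjusted p = 7.31e-05). *mtl-2* fell in both strains and less in *pqm-1*, with -1.40, -0.82 and -0.91 on the *pqm-1* arrays, against -2.63, -2.93 and -3.03 on the N2 arrays and a difference of 1.82 (SE 0.19, adjusted p = 0.000138). The arrays of *cdr-2* lay close together, with 1.07, 1.13 and 1.08 on the *pqm-1* arrays, against 0.26, 0.25 and 0.16 on the N2 arrays and a difference of 0.87 (SE 0.12, adjusted p = 0.000779). *smf-1*, a transporter of divalent metals, did not pass the threshold of 0.01 (0.49, adjusted p = 0.0123).

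Enzymes against oxidants followed the same direction where they passed. Of 25 superoxide dismutases, catalases, peroxidases and peroxiredoxins 5 were positive and 0 negative, beside 8.13% and 0.737% of all genes (3 positive without N2 replicate 1 and 3 without *pqm-1* replicate 1). *gpx-7*, a glutathione peroxidase, had -0.083, 0.58 and 0.21 on the *pqm-1* arrays, against -2.24, -2.13 and -1.91 on the N2 arrays. It fell in N2 and was near its untreated level in *pqm-1*, a difference of 2.33 (SE 0.16, adjusted p = 1.65e-05). *ctl-2*, the catalase of peroxisomes, had 0.41, 0.28 and 0.47 on the *pqm-1* arrays, against -0.66, -0.61 and -1.03 on the N2 arrays: it rose in *pqm-1*, fell in N2 and differed by 1.15 (SE 0.15, adjusted p = 0.000458).

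Heme genes held a set of strong negative differences. *C. elegans* does not make heme and takes it up from its food with the help of the heme-responsive *hrg* genes. Of 20 heme and iron genes, 3 were negative and 0 positive, beside 0.737% of all genes, with a median of -0.13. The other members, none of which passed, ran from -1.48 for *hrg-3* (adjusted p = 0.0283) to 0.49 for *smf-1*. *hrg-2*, a heme-binding protein of the hypodermis, had -1.69, -0.54 and -1.06 on the *pqm-1* arrays, against 1.98, 2.31 and 1.69 on the N2 arrays. It fell in *pqm-1* and rose in N2, and the difference was -3.09 (SE 0.25, adjusted p = 3.13e-05). *hrg-1*, the heme transporter of endosomes and lysosomes in the intestine, had -0.20, 0.11 and -0.23 on the *pqm-1* arrays, against 1.47, 1.46 and 1.22 on the N2 arrays. It rose in N2 alone and differed by -1.49 (SE 0.12, adjusted p = 2.77e-05). *hrg-7*, a secreted aspartic protease that carries a heme signal between tissues, had -2.02, -1.55 and -2.17 on the *pqm-1* arrays, against -0.84, -0.13 and -0.72 on the N2 arrays. Its fall passed in *pqm-1* alone, although every N2 ratio lay below 0. The difference of -1.35 (SE 0.23, adjusted p = 0.00204) lost its call without *pqm-1* replicate 1 (-1.30, adjusted p = 0.0113). Of these 3, *hrg-2* remained called under median centering in place of loess. Untreated worms of the strains did not differ past the threshold at these genes, with log2 ratios of 0.66, 0.36 and 0.70 for *hrg-2*, *hrg-1* and *hrg-7*.

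The remaining large negative differences came from single genes of several families. C08F11.12 and Y45F10C.2, both on chromosome IV, gave almost the same ratios, and cross-binding of their probes cannot be judged from the files. C08F11.12 had -2.95, -1.55 and -2.18 on the *pqm-1* arrays, against 0.31, 0.74 and 0.38 on the N2 arrays, a difference of -2.70 (SE 0.31, adjusted p = 0.000221), and Y45F10C.2 differed by -2.68 (adjusted p = 0.00016). Both fell in *pqm-1* alone. *nlp-39*, a neuropeptide-like protein gene, rose in both strains and less in *pqm-1*, with 1.02, 1.82 and 0.86 on the *pqm-1* arrays, against 3.54, 2.97 and 3.08 on the N2 arrays and a difference of -1.96 (SE 0.22, adjusted p = 0.000196). It was the 1 negative gene among 92 neuropeptide genes, of which 2 were positive (5 without N2 replicate 2). E02H9.7 had -2.005, -1.31 and -1.35 in *pqm-1*, against 0.17, 0.062 and -0.20 in N2, fell in *pqm-1* alone and differed by -1.57 (SE 0.22, adjusted p = 0.000821).

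Signals close to background limit others of this group. *ins-19*, an insulin-like peptide gene, had 0.15, 0.32 and 0.020 on the *pqm-1* arrays, against 3.68, 3.83 and 2.52 on the N2 arrays. The difference was -3.18 (SE 0.32, adjusted p = 9.86e-05), but untreated *pqm-1* RNA was not well above background on any of the 3 *pqm-1* arrays and CoCl2-treated *pqm-1* RNA on 2 of 3, so that the *pqm-1* ratio compares 2 dim signals and no fold is given. In N2 both RNAs were well above background on 3 of 3 arrays, and the gene rose. The other insulin-like gene that passed, *ins-35*, rose in *pqm-1* alone and had a positive difference of 0.94 (SE 0.14, adjusted p = 0.00129). *nspe-1*, of the nematode-specific peptide family e, was well measured throughout. It had -0.13, 0.43 and 0.037 on the *pqm-1* arrays, against 2.79, 3.00 and 2.15 on the N2 arrays, rose in N2 alone and differed by -2.53 (SE 0.21, adjusted p = 3.10e-05), and untreated *pqm-1* worms had more of it than untreated N2 worms by a log2 ratio of 2.85 (adjusted p = 3.94e-07). For its relative *nspe-7* untreated N2 RNA was not well above background on any N2 array and CoCl2-treated N2 RNA on 2 of 3. Its ratios were -2.97, -2.46 and -2.02 in *pqm-1*, against -0.022, 0.55 and 0.0075 in N2, and the difference of -2.66 (adjusted p = 0.000248) is given without a fold.

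Oocyte and eggshell genes leaned to the negative side as a list while few passed singly. All 22 had a difference below 0, from -0.80 to -0.18, with a median of -0.47, and 1 was called, beside 0.737% of all genes in that direction. By array the median ratio of the list was -0.35, -0.51 and -0.58 on the *pqm-1* arrays, against -0.042, -0.077 and 0.21 on the N2 arrays. The called gene was *perm-2*, a component of the permeability barrier of the eggshell, with -0.22, -0.61 and -0.21 on the *pqm-1* arrays, against 0.36, 0.47 and 0.54 on the N2 arrays and a difference of -0.80 (SE 0.12, adjusted p = 0.00137). *oma-2*, a regulator of oocyte maturation, and *egg-2*, a sperm receptor of the egg surface, missed the threshold, at -0.68 (adjusted p = 0.0111) and -0.58 (adjusted p = 0.0104). The number called was 2 without N2 replicate 2, 2 without *pqm-1* replicate 1 and 4 without *pqm-1* replicate 2. Genes of meiosis, germ granules and replication had 0 calls of 39 in either direction in the same fit (limma), with a median of -0.14.

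Sperm genes lay on the positive side. Major sperm proteins form the cytoskeleton of the crawling nematode sperm and signal to oocytes, and their many gene copies are nearly alike, so that a probe may read several of them. The list holds *msd* and *ssp* genes beside the *msp* genes. All 41 had a difference above 0, from 0.52 to 1.72, with a median of 1.08. The same interaction can be read from the other pair of comparisons, *pqm-1* over N2 with CoCl2 minus *pqm-1* over N2 without it, and there the median was 0.35. By array the median ratio was 2.66, 2.55 and 2.60 on the *pqm-1* arrays, against 1.10, 2.90 and 0.77 on the N2 arrays. N2 replicate 2 thus lay above all 3 *pqm-1* arrays, while the other N2 arrays lay far below them. With it 7 of the 41 were called, beside 8.13% of all genes in the positive direction, and without it 39, beside 9.42%. *msp-64* had 2.88, 2.68 and 3.02 on the *pqm-1* arrays, against 0.20, 2.70 and 0.52 on the N2 arrays. Its difference of 1.72 was not called (adjusted p = 0.0385), and without N2 replicate 2 it was 2.50 (adjusted p = 0.000131). *msp-51* had 2.65, 2.49 and 2.40 on the *pqm-1* arrays, against 1.63, 3.16 and 1.20 on the N2 arrays, with a difference of 0.52 (adjusted p = 0.458), or 1.10 (adjusted p = 0.00502) without that array. Within the slide that N2 replicate 2 shared with *pqm-1* replicates 1 and 2, the median over the list was -0.24, in the opposite direction. Leaving out another array moved the count to 0 (N2 replicate 1, *pqm-1* replicate 1), 2 (N2 replicate 3, *pqm-1* replicate 2) or 4 (*pqm-1* replicate 3). Untreated *pqm-1* worms already exceeded untreated N2 worms past the threshold at 31 of the 41 genes, against 3.1% of all genes, with a median log2 ratio of 2.15.

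Other spermatogenesis genes also lay mostly on the positive side. Of 50, 21 were positive and 0 negative, beside 8.13% and 0.737% of all genes, with a median of 1.10. Without CoCl2, 9 of the 50 were higher in *pqm-1* than in N2, beside 3.1% of all genes, with a median log2 ratio of 0.23. The array medians were 1.49, 1.48 and 1.14 on the *pqm-1* arrays, against 0.093, 0.67 and 0.084 on the N2 arrays. *spe-4*, the presenilin of the organelles of spermatocytes, had 2.10, 1.99 and 1.73 on the *pqm-1* arrays, against 0.068, 0.96 and -0.0011 on the N2 arrays and a difference of 1.60 (SE 0.25, adjusted p = 0.00145). *spe-15*, the myosin that sorts parts of the dividing spermatid, had 1.40, 0.87 and 1.04 on the *pqm-1* arrays, against -0.11, 0.23 and 0.053 on the N2 arrays and a difference of 1.05 (SE 0.13, adjusted p = 0.000474). Both rose in *pqm-1* alone, as did *spe-46* and *nspd-9*, and *ssp-31* from the list of major sperm proteins, which are expressed in sperm. *spe-46* differed by 1.37 (adjusted p = 0.00083) and *nspd-9* by 1.59 (adjusted p = 0.00146). *ssp-31* differed by 1.41 (adjusted p = 0.0024), which ended without N2 replicate 1 (1.33, adjusted p = 0.0145) and without *pqm-1* replicate 1 (1.35, adjusted p = 0.0132). The list of 50 had 34 positive genes without N2 replicate 2, 5 without N2 replicate 1, 9 without N2 replicate 3, 5 without *pqm-1* replicate 1 and 11 without *pqm-1* replicate 2. No gene of either sperm list was called under median centering in place of loess, although the medians of the strain difference then were 1.13 for the major sperm proteins and 1.11 for the others.

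Cuticle collagens, the structural proteins of the worm's exoskeleton, had the most positive genes of the lists examined. Of 166 tested, 64 were positive and 1 negative (38.6% and 0.602%, beside 8.13% and 0.737% of all genes), with a median of 0.44 and a range from -1.81 to 2.39. The median was 0.16 on the other pair of comparisons. By array the medians were 0.60, 0.41 and 0.33 on the *pqm-1* arrays, against 0.11, 0.020 and -0.036 on the N2 arrays, so that here N2 replicate 2 lay with the other N2 arrays, and 56 were positive and 1 negative without it. CoCl2 raised 85 of the 166 in *pqm-1*, beside 22.8% of all genes, and 13 in N2, beside 8.98% of all genes. *col-104* had 2.29, 2.14 and 2.68 on the *pqm-1* arrays, against 0.066, 0.16 and -0.28 on the N2 arrays, with a difference of 2.39 (SE 0.22, adjusted p = 5.68e-05). *col-13* had the tightest arrays of the named collagens, 1.82, 1.59 and 1.78 on the *pqm-1* arrays, against 0.25, 0.30 and 0.27 on the N2 arrays, with a difference of 1.46 (SE 0.088, adjusted p = 7.68e-06). *col-107* and *col-88* differed by 2.09 (SE 0.17, adjusted p = 3.30e-05) and 2.03 (SE 0.15, adjusted p = 2.17e-05). *rol-6* and *bli-1*, collagens whose mutants roll or blister, differed by 1.79 (SE 0.25, adjusted p = 0.000693) and 1.40 (SE 0.18, adjusted p = 0.000474). Of these 6, *col-13* and *rol-6* rose in both strains and the others in *pqm-1* alone. Without CoCl2, 64 of the 166 were higher and 5 lower in *pqm-1* than in N2, beside 3.1% and 1.26% of all genes, *rol-6* by a log2 ratio of 2.49 (adjusted p = 5.71e-06) and *col-13* by 1.89 (adjusted p = 1.15e-08). Under median centering in place of loess 15 collagens were called, *col-104*, *col-107* and *col-88* among them.

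**Figure D3:**
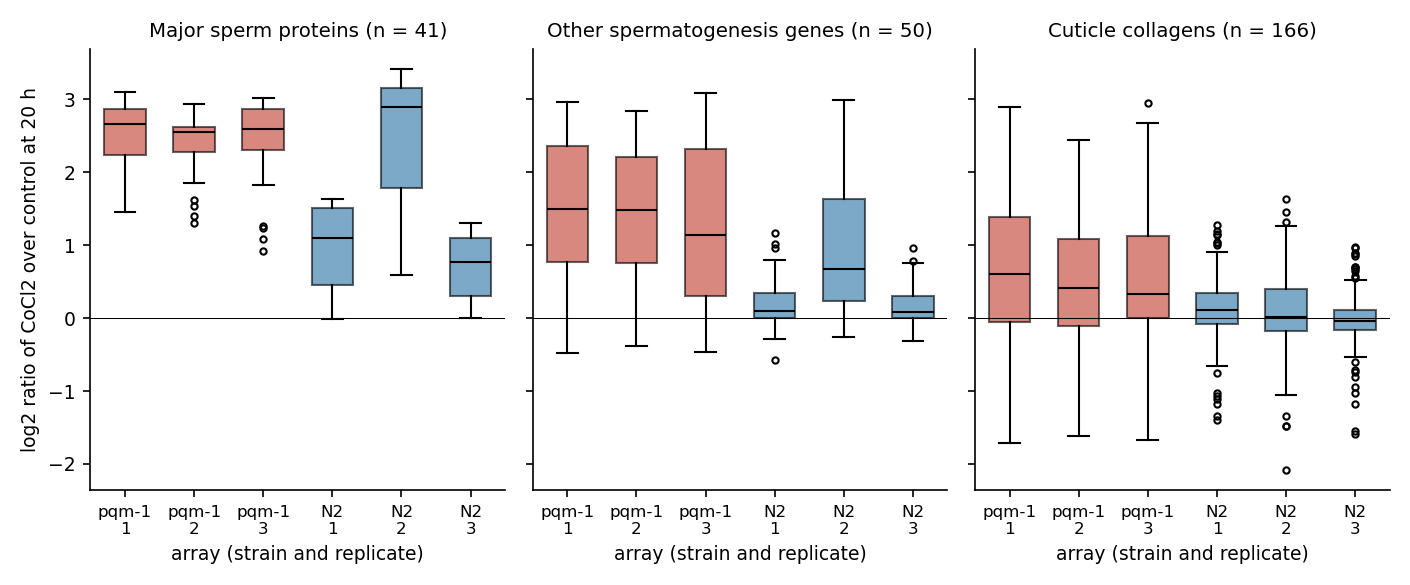
Box plots over the genes of 3 lists of the log2 ratio of CoCl2 over control at 20 h (y axis) on each of the 3 *pqm-1* arrays (red) and 3 N2 arrays (blue), with the median as a line, the quartiles as the box, whiskers to 1.5 times the box height and points beyond. For the major sperm proteins N2 replicate 2 (median 2.90) lies above the *pqm-1* arrays, for the other spermatogenesis genes it lies between the strains, and for the collagens the 3 N2 arrays lie together.

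Hedgehog-related and patched-related genes, secreted proteins and membrane receptors of the worm that act largely in the hypodermis and in molting, had 21 positive genes and 1 negative gene of 80, with a median of 0.21. Of all genes 8.13% were positive and 0.737% negative. *grd-14* had the smallest adjusted p of the named genes. Its ratios were 0.70, 0.87 and 0.66 on the *pqm-1* arrays, against -1.63, -1.54 and -1.65 on the N2 arrays, so that it rose in *pqm-1* and fell in N2, with a difference of 2.35 (SE 0.10, adjusted p = 9.07e-07). *grl-16* had 2.26, 1.42 and 2.16 on the *pqm-1* arrays, against -0.37, -0.54 and -0.47 on the N2 arrays and rose in *pqm-1* alone, with a difference of 2.41 (SE 0.21, adjusted p = 4.04e-05). *grd-6* rose in *pqm-1* alone as well, by a difference of 1.86 (SE 0.22, adjusted p = 0.000302). The untreated strains differed in the same direction at all 3, by log2 ratios of 0.59 for *grd-14*, 1.05 for *grl-16* and 1.06 for *grd-6*. The positive count was 11 without N2 replicate 1 and 12 without *pqm-1* replicate 1, and the negative count was 2 without N2 replicate 2 and 0 without N2 replicate 1 or *pqm-1* replicate 1. Among 10 hypodermis markers 3 were positive and 0 negative.

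Fatty acid activation and beta-oxidation, the chain of enzymes that charge fatty acids with coenzyme A and break them down, had 19 positive genes and 0 negative ones of 63. Over all genes 8.13% were positive and 0.737% negative. The median of the list was 0.26. The acyl-CoA synthetase *acs-2*, a target of the nuclear receptor NHR-49 in fasting, had 3.22, 2.79 and 2.64 on the *pqm-1* arrays, against 1.58, 1.89 and 1.53 on the N2 arrays. It rose in both strains and more in *pqm-1*, by 1.22 (SE 0.18, adjusted p = 0.00102). *acs-17*, another synthetase, had 1.29, 1.01 and 0.82 on the *pqm-1* arrays, against 0.38, 0.39 and 0.41 on the N2 arrays, and its difference of 0.64 (SE 0.12, adjusted p = 0.00442) ended as a call when any of N2 replicates 1 and 3 or *pqm-1* replicates 1 and 2 was left out. *acdh-6*, an acyl-CoA dehydrogenase, had 1.38, 1.20 and 1.24 on the *pqm-1* arrays, against -0.091, -0.27 and -0.23 on the N2 arrays and a difference of 1.47 (SE 0.14, adjusted p = 6.74e-05). *acox-1.5*, a peroxisomal acyl-CoA oxidase, differed by 1.08 (SE 0.14, adjusted p = 0.000431). Both *acdh-6* and *acox-1.5* rose in *pqm-1* alone. *ech-9*, an enoyl-CoA hydratase, fell in both strains and missed the threshold, at 0.48 (adjusted p = 0.0296). The list had 7 positive genes without N2 replicate 1, 8 without N2 replicate 3, 10 without *pqm-1* replicate 1 and 8 without *pqm-1* replicate 2.

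Yolk genes and the main fatty acid elongases fell strongly with CoCl2 in both strains, with no difference that passed. The desaturase *fat-7*, which makes oleic acid, had -4.73, -4.13 and -3.17 on the *pqm-1* arrays, against -2.40, -3.36 and -2.52 on the N2 arrays. The difference of -1.25 missed the threshold (adjusted p = 0.0337) and passed it only when *pqm-1* replicate 3 was left out (-1.67, adjusted p = 0.00402). *fat-6*, its close paralog, rose in both strains and differed by -0.59 (adjusted p = 0.0233). The elongases *elo-2*, *elo-5* and *elo-6* fell in both strains by similar amounts, to -2.46 ± 0.18 in *pqm-1* and -2.23 ± 0.19 in N2, -2.57 ± 0.37 in *pqm-1* and -2.82 ± 0.19 in N2 and -2.90 ± 0.32 in *pqm-1* and -3.29 ± 0.27 in N2 (SD, n = 3 each), and differed by -0.23, 0.24 and 0.40 (adjusted p = 0.363, 0.407 and 0.127). Another elongase, *elo-4*, did pass: it had 1.09, 0.71 and 0.93 in *pqm-1*, against -0.16, -0.24 and -0.12 in N2 and a difference of 1.08 (SE 0.16, adjusted p = 0.0012). *lbp-7*, a lipid-binding protein gene, rose in both strains and more in *pqm-1* by 1.00 (SE 0.12, adjusted p = 0.000321). All 5 yolk genes measured fell in both strains. *vit-2* had -3.85, -3.51 and -2.01 on the *pqm-1* arrays, against -1.69, -2.56 and -2.10 on the N2 arrays and *vit-6* -3.42, -3.58 and -2.27 on the *pqm-1* arrays, against -1.67, -2.46 and -1.95 on the N2 arrays, with *pqm-1* replicate 3 nearer to the N2 arrays. Their differences of -1.003 (SE 0.50, adjusted p = 0.227) and -1.06 (SE 0.43, adjusted p = 0.129) did not pass. The other 3 ran from -0.094 for *vit-4* to 0.065 for *vit-1*, and the median of the 5 was -0.094, against -1.68 on the other pair of comparisons.

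Nuclear hormone receptors, a large family of regulators in the worm, were called about as often as other genes, and 2 families of detoxification enzymes had a higher share of positive genes. The receptors had 24 positive genes and 0 negative of 249, near the 8.13% of all genes in the positive direction, with a median of 0.16. *nhr-57*, a target of HIF-1, had 2.12, 1.93 and 1.59 on the *pqm-1* arrays, against 0.60, 0.71 and 0.60 on the N2 arrays. It rose in both strains and more in *pqm-1*, by 1.24 (SE 0.12, adjusted p = 9.08e-05). *nhr-8*, a receptor with a part in sterol and xenobiotic metabolism, had 0.52, 0.76 and 0.36 on the *pqm-1* arrays, against -0.45, -0.40 and -0.21 on the N2 arrays, rising in *pqm-1* and falling in N2, with a difference of 0.90 (SE 0.11, adjusted p = 0.000298). The count was 8 without N2 replicate 1, 10 without N2 replicate 3, 9 without *pqm-1* replicate 1 and 7 without *pqm-1* replicate 2. The genes *hif-1* and *daf-16*, for the factors HIF-1 and DAF-16 themselves, did not pass in either strain and differed by 0.048 (adjusted p = 0.809) and -0.14 (adjusted p = 0.38).

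Cytochromes P450, which oxidize lipids and foreign compounds, had 13 positive and 0 negative genes of 71, beside 8.13% and 0.737% of all genes, with a median of 0.23. *cyp-25A2* fell in both strains and less in *pqm-1*: it had -0.56, -0.82 and -0.55 on the *pqm-1* arrays, against -1.97, -2.23 and -1.75 on the N2 arrays and a difference of 1.34 (SE 0.14, adjusted p = 0.000138). *cyp-33C7* rose in both strains and more in *pqm-1*, by 1.12 (SE 0.15, adjusted p = 0.000681). The count was 5 without N2 replicate 1, 7 without N2 replicate 3, 4 without *pqm-1* replicate 1 and 5 without *pqm-1* replicate 2. Over all genes the positive calls fell from 1875 to 773, 1009, 824 and 1034 without the same arrays. UDP-glucuronosyltransferases, which tag compounds for export, had 12 positive genes and 1 negative gene of 66 (7 positive without N2 replicate 1 or *pqm-1* replicate 2). *ugt-6* had 0.41, 0.25 and 0.53 on the *pqm-1* arrays, against -0.88, -1.22 and -1.16 on the N2 arrays and a difference of 1.49 (SE 0.11, adjusted p = 2.17e-05), rising in *pqm-1* and falling in N2. *ugt-2* rose in *pqm-1* alone and differed by 1.71 (SE 0.20, adjusted p = 0.000233), and *ugt-62* fell in both strains and less in *pqm-1*, by 1.35 (SE 0.13, adjusted p = 6.81e-05). The negative call of this family was lost without each of the arrays but *pqm-1* replicate 3, without which it had 2. Of 47 glutathione S-transferases, which couple glutathione to toxins, 30 rose in *pqm-1* and 23 in N2, beside 22.8% and 8.98% of all genes. They had 4 positive differences, near the share of all genes, and 1 negative. *gst-19* had 3.68, 3.64 and 2.67 in *pqm-1*, against 1.70, 2.19 and 1.43 in N2, with a difference of 1.56 (SE 0.25, adjusted p = 0.00157), and *gst-13* differed by 1.17 (adjusted p = 0.00125). The positive count was 8 without N2 replicate 2 and 2 without N2 replicate 3, *pqm-1* replicate 1 or *pqm-1* replicate 2. Short-chain dehydrogenases had 7 positive and 0 negative genes of 29. *dhs-18* and *dhs-3* both fell in N2 and not detectably in *pqm-1*, with differences of 1.00 (SE 0.13, adjusted p = 0.000512) and 0.80 (SE 0.11, adjusted p = 0.00083).

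Several genes that mark the intestine fell less, or rose, in *pqm-1*. Of 9 intestine markers 5 were positive and 0 negative, beside 8.13% and 0.737% of all genes, with a median of 0.54 and a range from -0.40 to 1.56. With 6 of the 9 above 0, the others lay below it. For 1 marker every *pqm-1* ratio lay below every N2 ratio, without a call. With each probe tested on its own the median over the markers' probes was -0.15. *ges-1*, the gut esterase, had 0.91, 0.72 and 0.62 on the *pqm-1* arrays, against -0.52, -0.90 and -1.01 on the N2 arrays. It rose in *pqm-1* and fell in N2, with a difference of 1.56 (SE 0.15, adjusted p = 8.42e-05). *vha-6*, a subunit of the proton pump of the apical gut membrane, had -0.98, -0.68 and -0.93 on the *pqm-1* arrays, against -1.93, -1.80 and -2.12 on the N2 arrays and a difference of 1.09 (SE 0.12, adjusted p = 0.000155). *pept-1*, the transporter of peptides from the gut lumen, had -0.24, 0.11 and -0.19 on the *pqm-1* arrays, against -1.20, -0.83 and -1.35 on the N2 arrays and a difference of 1.02 (SE 0.14, adjusted p = 0.000702). *vha-6* fell in both strains and *pept-1* in N2 alone. *pgp-1*, an exporter of the gut, rose in both strains and more in *pqm-1* by 0.79 (SE 0.11, adjusted p = 0.000714), although untreated *pqm-1* worms had less of it by a log2 ratio of -0.79 (adjusted p = 8.45e-05). Intestinal proteases had 5 positive and 0 negative genes of 23, with a median of 0.35 (3 without any 1 of N2 replicates 1 and 3 and *pqm-1* replicates 1 and 2). The cathepsin B-like proteases *cpr-1* and *cpr-4* rose in *pqm-1* and fell in N2. *cpr-1* had 0.92, 0.012 and 0.64 on the *pqm-1* arrays, against -1.15, -0.83 and -0.93 on the N2 arrays and a difference of 1.49 (SE 0.20, adjusted p = 0.000559), and *cpr-4* differed by 1.49 (SE 0.18, adjusted p = 0.000269).

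Markers of body muscle had 0 calls of 12 in either direction (limma), with a median of -0.0085. Of 11 pharynx markers 3 were positive, beside 8.13% of all genes, and 5 without N2 replicate 2, beside 9.42%. *phat-5*, expressed in the glands of the pharynx, rose in *pqm-1* and fell in N2, with 1.63, 1.66 and 1.03 on the *pqm-1* arrays, against -0.61, -0.63 and -0.43 on the N2 arrays and a difference of 2.00 (SE 0.19, adjusted p = 6.74e-05). Of the glutamine-rich *abu* and *pqn* genes 13 of 61 were positive and 0 negative (8 positive without N2 replicate 1 or *pqm-1* replicate 1). *abu-8*, of a group induced when the unfolded protein response is blocked, differed by 1.53 (SE 0.18, adjusted p = 0.000247). *pqn-78* differed by 1.39 (SE 0.11, adjusted p = 2.77e-05), with untreated N2 RNA well above background on 2 of 3 arrays. Acyltransferases of the *oac* family had 6 positive and 0 negative genes of 50, beside 8.13% and 0.737% of all genes (3 positive without N2 replicate 1 or *pqm-1* replicate 1), with *oac-34* at 1.64 (SE 0.12, adjusted p = 1.97e-05). *pck-3*, of the phosphoenolpyruvate carboxykinases that act in making glucose, differed by 1.69 (SE 0.24, adjusted p = 0.000895). All 4 of these named genes rose in *pqm-1* alone. Y37D8A.19, with no role given here, fell in *pqm-1* and rose in N2, by a difference of -0.81 (SE 0.11, adjusted p = 0.00103).

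**Figure D4:**
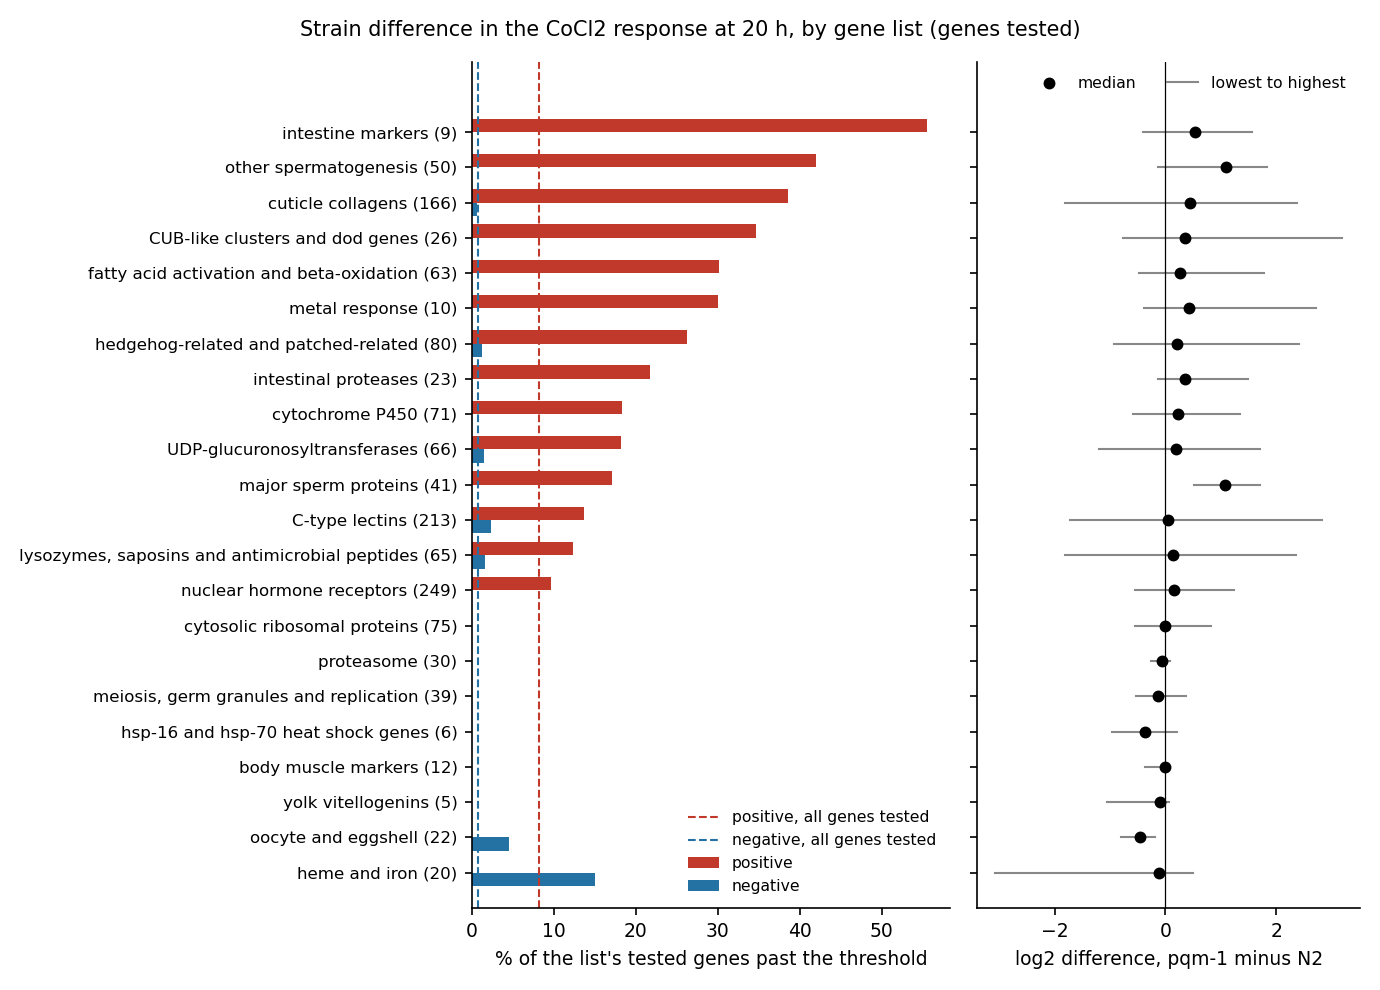
Left, the percentage of the tested genes of each list (number tested in parentheses) with a positive (red) or negative (blue) strain difference past the threshold, with dashed lines at 8.13% and 0.737% for all genes. Right, the median difference of the list (point) and its lowest and highest member (line) in log2 units. Intestine markers, spermatogenesis genes and collagens exceed the share of all genes most, while the lists of cytosolic ribosomal proteins, the proteasome and body muscle markers have 0 calls.

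A last comparison asked whether the strain difference at 20 h was there at 6 h. At 6 h the N2 arrays shared a slide that held no *pqm-1* array of this comparison. Slide and strain thus cannot be told apart at 6 h, which also bears on the test between the times. In a limma fit of all 24 arrays the difference of the 2 strain differences was tested for 21820 genes, of which 1290 (5.91%) had a higher and 75 (0.344%) a lower strain difference at 20 h than at 6 h. Of 1870 positive genes measured at both times 1060 passed this test in the same direction, and of 170 negative genes 39 did. The genes were chosen by their difference at 20 h, which is part of this contrast, so that these counts are a description and no test. The median strain difference of the positive genes was 1.03 at 20 h and 0.039 at 6 h, and that of the negative genes -0.81 at 20 h and -0.11 at 6 h. At 6 h itself, where 1.15% of all genes had a positive and 1.25% a negative strain difference past the threshold, 113 of the 1875 positive genes were positive and 41 negative. Of the 170 negative genes 26 were negative at 6 h and 7 positive.

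Among the named genes the times fell into several patterns. For R12E2.14, *cld-1*, *col-104* and *grl-16* the difference at 6 h was near 0, at -0.054, -0.077, -0.074 and -0.036, and the higher value at 20 h passed the test between the times (adjusted p of 8.59e-06, 4.83e-05, 7.09e-05 and 3.45e-05). *mtl-2* had opposite signs at the times, with 1.82 at 20 h and -1.13 at 6 h (adjusted p = 0.00044 at 6 h), and the difference between the times was 2.95 (SE 0.25, adjusted p = 1.28e-06). F53F1.4 likewise had 2.96 at 20 h and -1.27 at 6 h (adjusted p = 0.0015). *lys-7* differed at both times and more at 20 h, with 2.37 at 20 h and 1.27 at 6 h (adjusted p = 2.26e-05) and a change whose adjusted p was 0.00172. For *acs-2*, *ctl-2* and *dhs-18* the differences at 6 h were 1.29, 1.01 and 0.82, all called, and no change between the times was detected (adjusted p = 0.957, 0.888 and 0.817).

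The 3 heme genes called at 20 h also differed at 6 h. At 6 h the strain difference was -3.57 for *hrg-7*, -2.51 for *hrg-1* and -2.06 for *hrg-2*, all past the threshold. It was smaller in size at 20 h for *hrg-7* (adjusted p = 0.000393) and *hrg-1* (adjusted p = 0.00093), and for *hrg-2* the change did not pass (adjusted p = 0.1). The elongases *elo-2*, *elo-5* and *elo-6* had a difference at 6 h that was not called at 20 h: it was -2.06 for *elo-2*, -1.66 for *elo-5* and -1.59 for *elo-6*, and the change between the times passed for all 3 (adjusted p = 7.57e-05, 0.000221 and 7.04e-05). For *fat-7* the value was -1.25 at 20 h and -1.59 at 6 h (adjusted p = 0.00174 at 6 h), and no change between the times was detected (adjusted p = 0.784). *ech-9* also moved, with 0.48 at 20 h, -2.12 at 6 h and an adjusted p of 0.000701 for the change. Of the 166 collagens 60 passed the test between the times, counted over both directions. Of all genes tested at both times, 5.91% had a higher and 0.344% a lower strain difference at 20 h.

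**Figure D5:**
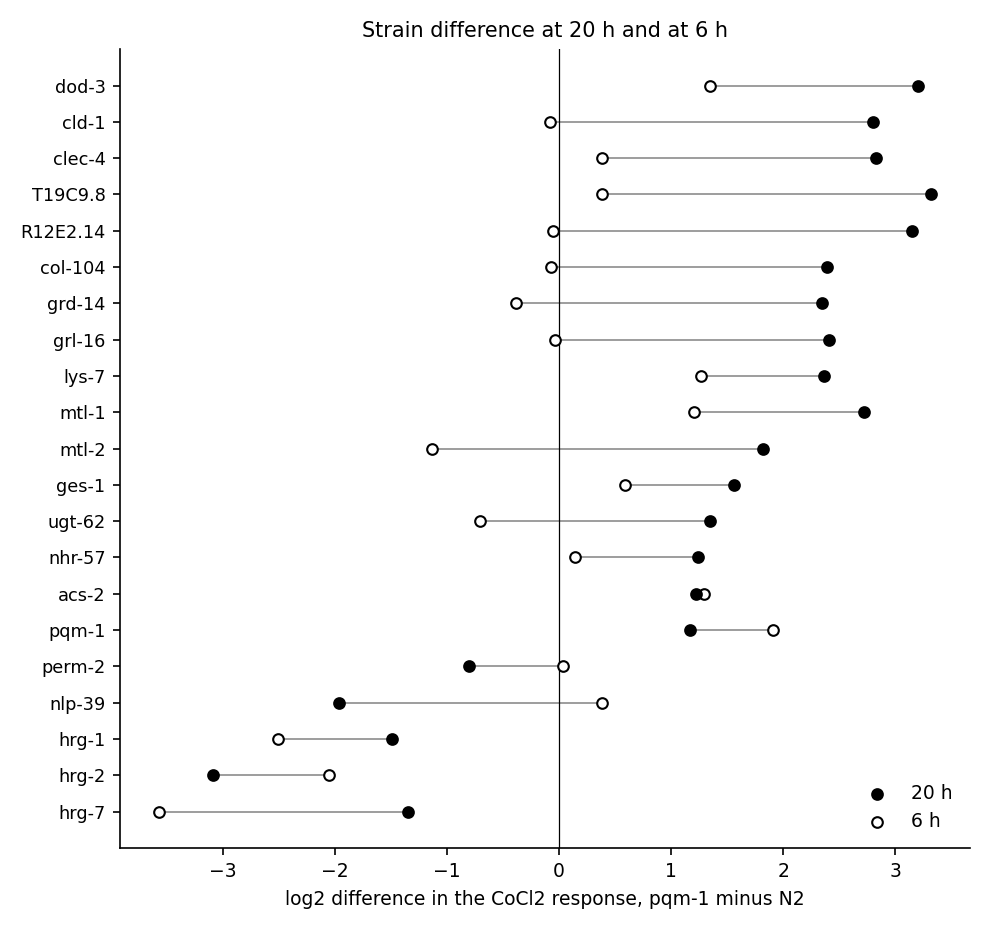
Strain difference in the CoCl2 response (x axis, log2, *pqm-1* minus N2) of 21 named genes at 20 h (filled points) and at 6 h (open points), joined by a line. R12E2.14, *cld-1*, *col-104* and *grl-16* lie near 0 at 6 h and far right at 20 h, *mtl-2* and *ugt-62* lie on opposite sides of 0, and *hrg-1*, *hrg-2* and *hrg-7* lie left of 0 at both times.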

How the data were processed

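RNA of CoCl2-treated and untreated *pqm-1(ok485)* and N2 worms was measured on 24 two-color Agilent arrays, 12 of them from 20 h, each with Cy3 and Cy5 labels. The spot intensity values were deposited by the authors as median signals of each spot and its local background from the scanner's Feature Extraction software. The log10 ratios in the same deposited files come from the scanner's own processed signals, from which the authors made the log2 values of the deposited value table, with signs that equal those of the fields on 24 of 24 arrays. Both served as alternatives only.

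Background was corrected by normexp (offset 50), which pulls ratios of dim spots toward 0, and loess was applied within each array, which assumes that most genes do not change at each brightness. Control spots and outliers were left out. Spots of a probe were averaged first and then the probes of each gene, and 34515 of 43603 probes were matched to RefSeq. A probe entered where at least 1 comparison had it well above background in a channel on all its arrays, and a gene where at least 2 arrays of each comparison had a value. The 12 arrays were fitted with limma 3.58.1 (R 4.3.3) as 4 group means with 8 residual degrees of freedom. Adjusted p-values are Benjamini-Hochberg values over all genes tested. The number of arrays limits the precision. The fit was tested on simulated data.

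The signs follow the strain and treatment fields, from which the source names differ on 10 of 24 arrays and on 2 of the 6 used here. Replicates labeled 1b were taken as replicate 1. Named are *pqm-1*, the largest differences in each direction, the members of each list with the lowest p or at its ends, the largest differences among genes called in opposite directions in the strains, and the genes the study names. The genes and lists were chosen with earlier results of these data known. Members of lists were matched by symbol, and *sodh-1* and *vit-3* had no tested value. No sequences were used. Alternatives changed the threshold, test (two-class SAM), background, normalization, ratio source, filter, probes, arrays, dyes, slide, scan date, replicate block and model.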

Additional observations from a re-analysis of the deposited data

Results flagged for a closer look

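The responses of the 2 strains differed, by the test of the difference itself, at 1875 genes in the positive and 170 in the negative direction at 20 h, and the strain difference was higher at 20 h than at 6 h for 1290 genes and lower for 75. Among the genes named, 81 had different responses by that test. Their differences, *pqm-1* minus N2 in log2 units, are given here by family with no explanation. Groups of 3 arrays were not tested for outlying arrays.

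The targeted gene *pqm-1* differed by 1.17. The genes of no stated family were T19C9.8 (3.32), R12E2.14 (3.15), F41F3.3 (3.11), F53F1.4 (2.96), R12E2.15 (2.88) and F33H12.7 (2.64) on the positive side. On the negative side they were C08F11.12 (-2.70), Y45F10C.2 (-2.68), E02H9.7 (-1.57) and Y37D8A.19 (-0.81).

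Defense and DAF-16-linked genes were *dod-3* (3.20), *cld-1* (2.80), *mbug-1* (1.67), *clec-4* (2.83), *clec-66* (1.58), *clec-265* (1.81), *clec-52* (-1.74), *lys-7* (2.37), *spp-2* (2.34), *spp-17* (-1.13), *pals-23* (1.64), *pals-6* (1.45) and *pals-17* (-0.86). Metal, oxidant and heme genes were *mtl-1* (2.72), *mtl-2* (1.82), *cdr-2* (0.87), *gpx-7* (2.33), *ctl-2* (1.15), *hrg-1* (-1.49), *hrg-2* (-3.09) and *hrg-7* (-1.35). Cuticle and hedgehog-related genes were *col-104* (2.39), *col-107* (2.09), *col-88* (2.03), *col-13* (1.46), *rol-6* (1.79), *bli-1* (1.40), *grd-14* (2.35), *grl-16* (2.41) and *grd-6* (1.86).

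Lipid genes were *far-3* (2.51), *acs-2* (1.22), *acs-17* (0.64), *acdh-6* (1.47), *acox-1.5* (1.08), *elo-4* (1.08) and *lbp-7* (1.00). Receptors and enzymes of detoxification were *nhr-57* (1.24), *nhr-8* (0.90), *cyp-25A2* (1.34), *cyp-33C7* (1.12), *ugt-2* (1.71), *ugt-6* (1.49), *ugt-62* (1.35), *gst-19* (1.56), *gst-13* (1.17), *dhs-18* (1.00) and *dhs-3* (0.80). Intestine and pharynx genes were *ges-1* (1.56), *vha-6* (1.09), *pept-1* (1.02), *pgp-1* (0.79), *cpr-1* (1.49), *cpr-4* (1.49) and *phat-5* (2.00).

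Sperm and eggshell genes were *spe-4* (1.60), *spe-15* (1.05), *spe-46* (1.37), *nspd-9* (1.59), *ssp-31* (1.41) and *perm-2* (-0.80). The remaining genes were *oac-34* (1.64), *pck-3* (1.69), *abu-8* (1.53), *pqn-78* (1.39), *ins-35* (0.94), *ins-19* (-3.18), *nlp-39* (-1.96), *nspe-1* (-2.53) and *nspe-7* (-2.66). The *pqm-1* RNAs of *ins-19* and the N2 RNAs of *nspe-7* were mostly not well above background, so that these values give no fold.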

How the results depend on the processing

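The 1875 positive and 170 negative genes became 3117 and 599 at an adjusted p below 0.05, 723 and 68 with normexp without an offset, 105 and 10 with arrays centered on their median, 1097 and 274 with the scanner ratio, 1096 and 274 with the series table, 539 and 35 in a fit of the 6 arrays alone, 194 and 35 with the slide as a fixed block, 1058 and 82 with the scan date as a fixed block (chosen after seeing the data), 3997 and 1333 in the loop model, 139 and 3 by two-class SAM, and 0 and 0 with the dyes of the source names, where limma left 571 genes at an unadjusted p below 0.05. The dyes of the source names turn 2 of the 6 arrays against the other arrays of their strain. The negative genes also became 256 with a dye term and 709 with the other pair of comparisons. The share of positive among called genes was 91.7%, 80.0% with the scanner ratio, 78.4% with the other pair and 75.0% in the loop model. Leaving out 1 array gave 773 to 2172 positive and 59 to 182 negative genes. For the test between the times, the 1290 higher and 75 lower genes became 2156 and 213 at an adjusted p below 0.05, 166 and 3 with median centering and 595 and 141 with the scanner ratio, and 710 to 1683 and 36 to 101 without 1 array.

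The negative genes that fell in *pqm-1* alone were 52.4% of all negative genes, 30.5% with scaling between arrays and 25.7% with the slide as a fixed block. The median over the major sperm proteins was -0.24 within the shared slide, and that over the probes of the intestine markers was -0.15 with each probe tested on its own. Median centering shifted the median of all genes to 0.067. The cause of these changes was not tested. Of the 81 named calls, 21 held under SAM, 65 in the fit of the 6 arrays, 68 with scaling, 73 with the scanner ratio, 74 with the other pair, 76 with no offset and 0 with the dyes of the source names. All 81 kept their direction under these settings. Genes named without a call were not part of this count.

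The replicate numbers were tried as a replicate block, which gave 1998 positive and 166 negative genes, and 1294 and 66 between the times. Deviations of same-numbered arrays of the strains correlated at 0.0086, 0.42 and 0.17, and *pqm-1* replicate 1 correlated best with N2 replicate 3 (0.145), so that the numbers were not taken as pairs, and the block changed no named call. Without 1 array the remaining 2 of that strain share the spread of the other comparisons. Promoter motifs, listed as a description, were not run, since no promoter sequences were at hand here. Dim signals limit *ins-19*, *nspe-7* and the genes on N2 replicate 3.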

Other observations

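Positive genes were spread over the chromosomes unevenly. They made up 12.6% of the matched genes tested on chromosome IV (380 of 3027), 11.2% on II, 10.1% on I, 9.24% on V, 8.73% on III and 6.29% on X (154 of 2447). Negative genes made up 1.19% on X and between 0.525% and 0.727% on the other chromosomes. These are shares of these genes, with no test.

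Medians of the cytosolic ribosomal protein and proteasome lists lay near 0. Over all genes 8.13% were positive and 0.737% negative. Cytosolic ribosomal proteins, which build the ribosome, had 0 calls of 75 in either direction, with a median difference of -0.0093, and subunits of the proteasome, which breaks down proteins, had 0 of 30, with -0.065. Of 58 respiratory chain genes 1 was positive, and of 65 mitochondrial ribosomal protein genes 2 were. Among 20 genes of glycolysis and gluconeogenesis 2 were positive and 1 negative (10% and 5%), with a median of -0.14 and a range from -0.47 to 1.69. Of 54 histone genes 3 were positive and 1 negative (5.56% and 1.85%), with a median of -0.15 and a range from -0.96 to 1.18. Embryo markers had 1 positive gene of 18 (5.56%) and neuron markers 1 of 14 (7.14%).

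Neuropeptide genes rose in both strains: 73 of 92 rose with CoCl2 in *pqm-1*, beside 22.8% of all genes, and 57 in N2, beside 8.98% of all genes. Their median difference was 0.15. Genes of the HIF-1 pathway and its targets rose at 7 of 15 in *pqm-1* and at 5 in N2, with a median difference of 0.35 and 1 positive call, *nhr-57*.

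Among 1874 positive genes with a value on each N2 array, N2 replicate 2 was the highest of the 3 N2 arrays at 1282 (68.4%), compared with 42.0% of all genes. The median ratio of the positive genes was 1.31, 1.19 and 0.97 on the *pqm-1* arrays, against 0.035, 0.33 and 0.020 on the N2 arrays. Of the 1875 positive genes, 189 were higher and 31 lower in untreated *pqm-1* than in untreated N2 worms, and of the 170 negative genes 22 were higher and 10 lower. Of all genes, 3.1% were higher and 1.26% lower.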
